A study of Arabidopsis thaliana with 27 samples.

Results

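Gynoecia of arf6 Pstk_axr3 plants were compared with gynoecia of wild-type Columbia plants of Arabidopsis thaliana. The arf6 Pstk_axr3 plants carried a mutation in ARF6 together with a transgene, axr3-1 under promoter sequences of SEEDSTICK (STK), which makes a stabilised form of the repressor AXR3/IAA17. The comparison took the 8 gynoecium libraries with these genotypes in their labels, 4 of each, out of 27 libraries of stamens and gynoecia in the study. The gynoecia came from flowers of stage 12 and were 0.9 to 1.4 mm long, and they were taken 1 to 3 hours after dawn from plants in 14 hours of light and 10 of darkness. All groups share the Columbia background, and ages in days are not in the labels. By the sample titles, arf6 Pstk_axr3 replicates 1 and 3 were transgenic line 15-5 and replicates 2 and 4 line 25-2, while the genotype tags give 15-5 for all 4, and the titles were used here. Both are lines of the same construct, and the number of transgene copies in the arf6 plants is not in the labels. The promoter limits the model to the STK domain, which is chiefly the ovule and its stalk, whereas the ARF6 mutation is present in all cells. The other gynoecium groups enter as further reference points. These are Pstk_axr3 (n = 4), with the transgene and an intact ARF6, and arf6arf8 (n = 2), a double mutant of ARF6 and ARF8. Of Pstk_axr3, replicate 3 was line 15-5, replicate 4 a cross of Columbia and line 25-2 by its title, and replicates 1 and 2 name no line.

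Auxin response factors (ARFs) are DNA-binding proteins that activate or repress genes in response to auxin. Aux/IAA proteins such as IAA17 bind to activating ARFs and keep their target genes off, and auxin causes their degradation through a short motif called the degron. The axr3-1 substitution lies in the core of that motif and makes the protein resistant to degradation. ARF6 and ARF8 are closely related activators, both limited by the microRNA miR167, and are known for promoting stamen and gynoecium maturation and jasmonate production in the flower. STK is a MADS-box gene of ovule identity.

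Total read counts ran from 6177301 to 11821613 in wild type and from 7291701 to 15374607 in arf6 Pstk_axr3. Values per library are given as CPM, read counts scaled to a common effective library size, and 3 reads correspond to 0.193 to 0.478 CPM in the 8 libraries. Whether the replicates are separate plants is not in the labels, and p-values measure only how far these libraries spread, part of which may be technical. All 10 gynoecium markers had counts in every library and summed to 578 to 628 CPM in wild type and 544 to 570 CPM in arf6 Pstk_axr3. Of 19 stamen and pollen markers, 11 to 16 had a count in a library, and DYT1 and MS1, defining genes of the tapetum, had none in any of the 8. Their sum was 58.4 to 111 CPM in wild type and 51.8, 65.1, 55.2 and 201 CPM in arf6 Pstk_axr3, where replicate 4 held 147 CPM of the tapetum gene GRP17. Of the 8 stamen and pollen markers tested, 1 (STP11) was called higher in arf6 Pstk_axr3 and 0 lower, where 1.07% of all genes rose. AP1, AP3 and PI, which mark sepals, petals and stamens, summed to 9.40 to 14.8 CPM in wild type and to 18.6, 18.7, 16.6 and 31.4 CPM in arf6 Pstk_axr3. CRC, a gene of carpels and nectaries, stood at 1.39, 3.81, 11.2 and 8.97 CPM in wild type against 9.93, 15.3, 18.22 and 22.7 CPM in arf6 Pstk_axr3, and was not called (log2 fold change 1.46, edgeR adjusted p = 0.125). The part of tissue carry-over or developmental stage in the results below was not tested. On the first principal component of the 8 libraries, with 32.1% of the variance, wild type lay between −28.69 and −11.42 and arf6 Pstk_axr3 between 13.12 and 26.65, so the genotypes were separate. Library numbers in the titles also tended to rise along this axis. Wild-type numbers 1, 5, 26 and 33 lay at −26.51, −28.69, −22 and −11.42. In arf6 Pstk_axr3, numbers 32, 48, 50 and 51 lay at 13.12, 26.65, 23.88 and 24.96. The part of library order in this axis was not tested.

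The altered genes were examined first. In bulk tissue, fewer cells of a type and less RNA per cell cannot be told apart, here and in all results that follow. ARF6 (AT1G30330) stood at 437, 449.9, 558 and 561 CPM in wild-type replicates 1 to 4 and at 55.7, 57.3, 59.9 and 61.8 CPM in arf6 Pstk_axr3. Both lines were alike, and ARF6 fell by 3.09 on the log2 scale (SE 0.10, edgeR quasi-likelihood test, Benjamini-Hochberg adjusted p = 1.62e-12). Transcripts were thus still detected, and the labels do not give the allele. ARF6 lay below the 131 and 139.6 CPM of the arf6arf8 libraries, with a difference of −1.20 (SE 0.11, adjusted p = 3.60e-06). ARF8 (AT5G37020) stood at 406, 371, 372 and 371 CPM in wild type against 419, 404, 409 and 412 CPM in arf6 Pstk_axr3, and the difference of 0.11 (SE 0.09, adjusted p = 0.678) did not pass the test. IAA17 (AT1G04250) stood at 14.3, 12.1, 10.4 and 8.09 CPM in wild type against 35.9, 32.0, 29.6 and 26.6 CPM in arf6 Pstk_axr3, an increase of 1.45 (SE 0.17, adjusted p = 0.000166). Reads of the transgene and of the endogenous IAA17 gene cannot be told apart. In Pstk_axr3 the same measure was 68.3 to 84.8 CPM, so that arf6 Pstk_axr3 held 1.25 less on the log2 scale (SE 0.15, adjusted p = 2.93e-05). STK (AT4G09960) divided the group by line. It stood at 157 and 159 CPM in line 15-5 and at 31.8 and 35.5 CPM in line 25-2, against 129 to 138 CPM in wild type. Over both lines the STK difference of −0.49 did not pass the test (adjusted p = 0.667), while line 15-5 exceeded line 25-2 by 2.24 (SE 0.26, adjusted p = 0.00137). The miR167 locus MIR167A (AT3G22886) gave 1 to 7 reads per library in both genotypes and was not called.

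**Figure D1:**
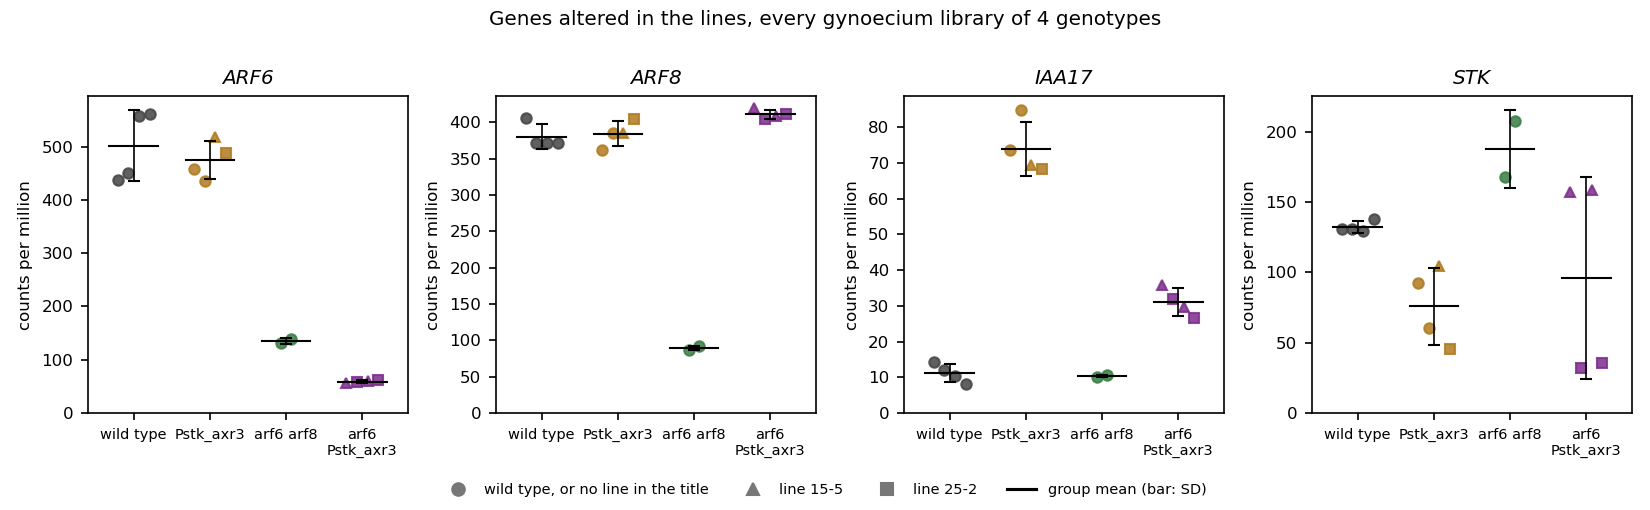
CPM of ARF6, ARF8, IAA17 and STK (vertical axes, from 0) in every gynoecium library of 4 genotypes (horizontal axis), with group means and SD bars. The 4 arf6 Pstk_axr3 libraries lie at 55.7 to 61.8 CPM for ARF6, at 26.6 to 35.9 CPM for IAA17 between wild type and Pstk_axr3, and in 2 separate pairs by line for STK.

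The degron core that axr3-1 changes is shown for IAA17 and for the 4 Aux/IAA genes called lower below, as 30 coding bases from the RefSeq annotation of TAIR10.1, with the codons of the core in capitals (glycine, tryptophan, proline, proline). IAA17 lies at chr1:1136938-1136967 (+), IAA1 at chr4:8361436-8361465 (+), IAA4 at chr5:17550740-17550769 (+), IAA7 at chr3:8195568-8195597 (+) and IAA16 at chr3:1289730-1289759 (−).
IAA17: caagttgtgGGATGGCCACCGgtgagatca
IAA1: caaatcgttGGATGGCCTCCAgtgagatct
IAA4: cagattgttGGATGGCCACCAgttagatct
IAA7: caagtggtgGGATGGCCACCTgtgaggaac
IAA16: caagttgtgGGATGGCCACCGgtacgatct
The core was present in the coding sequence of 23 of the 29 Aux/IAA genes examined and was not matched in 6, which are IAA20 and IAA30 to IAA34. The 5 genes shown are the reference alleles, and the transgene's own sequence was not read here.

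Of 18616 genes tested, 320 differed between arf6 Pstk_axr3 and wild type (1.72%), with 199 higher (1.07%) and 121 lower (0.65%). The median log2 fold change of all genes was −0.0054. Of the called genes, 130 differed more than 2-fold, 85 of them higher and 45 lower. All 320 had the same sign in both lines, which a call made on these same libraries together largely fixes, so it lends no support. In 193 of the higher and 116 of the lower genes the 4 libraries of one genotype did not overlap with the 4 of the other. Of all genes tested, 7.9% had no overlap, 3.97% with arf6 Pstk_axr3 higher and 3.93% with it lower. The count varied with the library left out. It was 312, 143, 220 and 219 without wild-type replicates 1 to 4 and 373, 177, 195 and 185 without arf6 Pstk_axr3 replicates 1 to 4. Library numbers in the titles run from 32 up in arf6 Pstk_axr3 but include 1 and 5 in wild type. With wild-type replicates 3 and 4 alone (numbers 26 and 33) 144 genes were called, 95 of them among the 320. That fit also left out the libraries of the other genotypes, which the fits without 1 library kept, and it tested 17667 genes. Fewer calls in it can thus come from its smaller size as well as from library numbers.

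**Figure D2:**
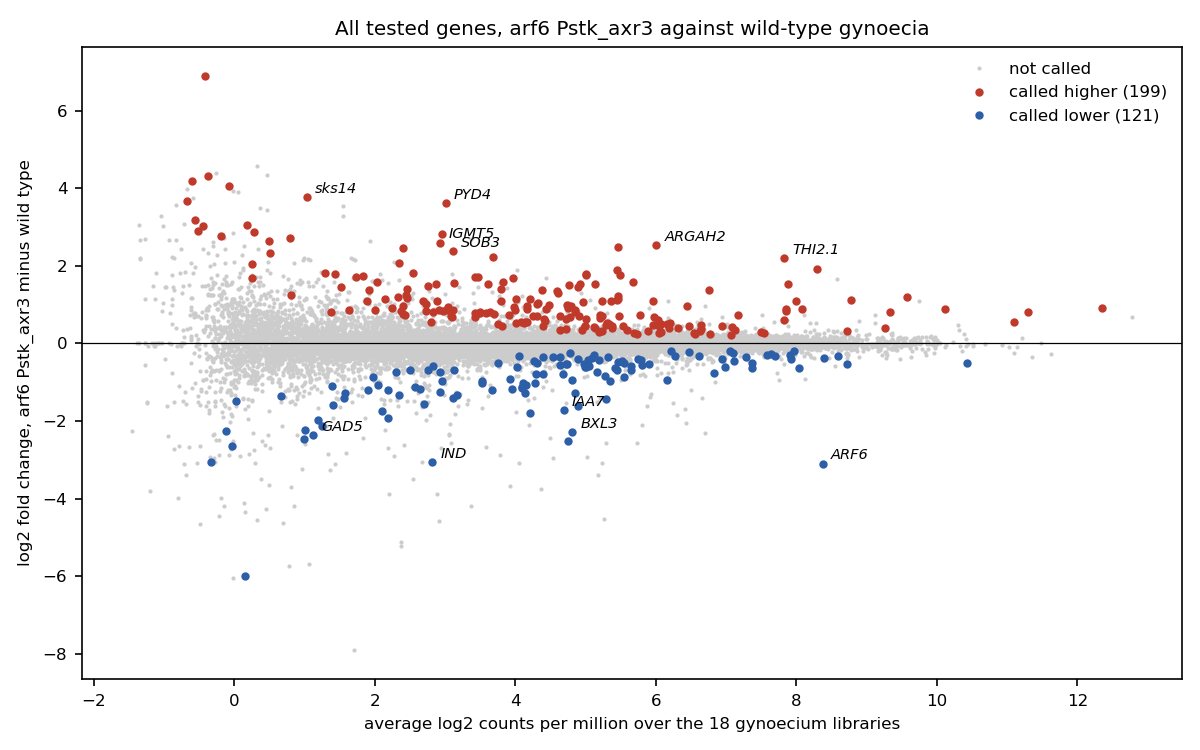
Each point is 1 of the 18616 tested genes, with average log2 CPM over 18 gynoecium libraries on the horizontal axis and the log2 fold change of arf6 Pstk_axr3 minus wild type on the vertical axis. The 199 genes called higher are red and the 121 called lower are blue, with ARF6 and IND far below 0 and PYD4, ARGAH2 and THI2.1 above it.

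Among auxin genes, 4 Aux/IAA genes and 3 efflux carrier genes were lower, and 1 influx carrier gene was higher. Many Aux/IAA genes are themselves early targets of auxin response, and which of the called genes are was not examined here. Of 28 Aux/IAA genes on the list, which leaves out IAA17, 21 were tested, 4 fell and none rose, with a median of −0.18, where 0.65% of all genes fell and the median of all genes was −0.0054. IAA7 (AT3G23050) stood at 44.02, 35.5, 27.1 and 31.2 CPM in wild type against 13.4, 7.72, 10.1 and 11.7 CPM in arf6 Pstk_axr3, a fall that separated all libraries (log2 fold change −1.72, SE 0.21, edgeR adjusted p = 0.000179). IAA1 (AT4G14560) stood at 26.3, 25.3, 20.7 and 28.0 CPM in wild type against 17.57, 8.56, 11.5 and 11.2 CPM in arf6 Pstk_axr3 (−1.07, SE 0.22, adjusted p = 0.0155). IAA4 (AT5G43700) fell from 49.8 to 58.1 CPM to 24.7 to 45.7 CPM, and IAA16 (AT3G04730) from 147 to 182 CPM to 101 to 132 CPM. The count of 4 was 2 without wild-type replicate 2 or 3 or arf6 Pstk_axr3 replicate 2 or 3, and 1 without arf6 Pstk_axr3 replicate 4 or with the high library numbers only, and IAA7 passed in each of these settings. Of 20 genes of auxin synthesis and transport, all tested, the efflux carrier genes PIN3, PIN4 and PIN7 fell and the influx carrier gene LAX1 rose. Of all genes, 0.65% fell and 1.07% rose. The median of this list was 0.01, with 10 of the 20 fitted above 0, and at an unadjusted p under 0.05 4 were higher and 4 lower. PIN7 (AT1G23080) stood at 141, 151, 141 and 139 CPM in wild type against 104, 101, 105 and 122 CPM in arf6 Pstk_axr3 (−0.41, SE 0.06, adjusted p = 0.00133). PIN4 (AT2G01420) stood at 35.0, 39.2, 38.7 and 44.1 CPM in wild type against 31.8, 24.9, 24.8 and 21.3 CPM in arf6 Pstk_axr3 (−0.61, SE 0.13, adjusted p = 0.0192). PIN3 (AT1G70940) went from 23.7 to 32.0 CPM to 11.4 to 21.5 CPM. The PIN count was 1 without wild-type replicate 2 or arf6 Pstk_axr3 replicate 2 or 3, and 0 with the high library numbers only. LAX1 (AT5G01240) lay at 26.5 to 31.6 CPM and 31.0 to 43.7 CPM, and lost its call without any 1 of 6 libraries, wild-type replicates 2 to 4 and arf6 Pstk_axr3 replicates 2 to 4. Of 8 genes for auxin conjugation of the GH3 family, 7 were tested and 1, GH3.9 (AT2G47750), rose, where 1.07% of all genes did. GH3.9 went from 5.96 to 8.07 CPM to 11.7 to 22.1 CPM, a call lost without wild-type replicate 2 or arf6 Pstk_axr3 replicate 3 or 4. None of 7 tested SAUR genes of 20, which respond early to auxin, passed the test, and 4 were lower at an unadjusted p under 0.05, while without arf6 Pstk_axr3 replicate 1 one of them was called. None of 18 ARF and auxin receptor genes passed, with 2 lower at an unadjusted p under 0.05, ARF6 being counted with the altered genes.

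In the fruit opening pathway, the gene INDEHISCENT (IND, AT4G00120) had the lowest fold change after ARF6 among the genes named by rule. IND is a transcription factor that specifies the valve margin, the tissue where the fruit later splits. It stood at 14.6, 9.86, 6.38 and 7.33 CPM in wild type against 1.07, 0.643, 2.47 and 0.803 CPM in arf6 Pstk_axr3. The 4 mutant libraries held 7 to 18 reads each, and the absence of overlap with wild type was required by the rule (log2 fold change −3.06, SE 0.39, edgeR adjusted p = 0.000329). ALCATRAZ (ALC, AT5G67110), which acts in the same tissue in the cells that separate, fell from 195, 182, 169 and 164 CPM to 136, 132, 119 and 115 CPM (−0.50, SE 0.10, adjusted p = 0.0166). Of the other valve margin genes tested, FUL, RPL, NST1 and ADPG1 were not called. The polygalacturonase gene ADPG1 lay at 0.166 to 0.896 CPM in wild type against 1.26 to 2.82 CPM in arf6 Pstk_axr3 (1.61, adjusted p = 0.0966), and with DESeq2 1 gene of the list was called higher. The list thus held 2 lower genes of 6 tested and 8 members, with a median of −0.22, where 0.65% of all genes fell. The count was 1 without wild-type replicate 2 or arf6 Pstk_axr3 replicate 3 or 4 or with the high library numbers only, IND passing in each case. SHATTERPROOF1 (SHP1, AT3G58780), a MADS-box gene of carpel, ovule and valve margin, fell from 145, 155, 141 and 151 CPM to 93.1, 83.1, 86.9 and 86.6 CPM (−0.76, SE 0.08, adjusted p = 2.59e-05). Its close relative SHP2 lay at 55.3 to 62.4 CPM and 47.7 to 54.7 CPM and did not pass (−0.21, adjusted p = 0.179).

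Upstream sequence was searched for the auxin response elements TGTCTC and TGTCGG, on both strands, in windows of 250 bases before to 50 bases after each gene start in TAIR10.1. At least 1 of them was present in 18.7% of 27443 protein-coding windows, TGTCTC in 14.2% and TGTCGG in 5.12%. Of the 10 genes with the largest increases 2 held one (CORI3 and AT4G29690), and of the 10 with the largest decreases 2 did (IND and AT4G33390). IND, with more matches than any other gene named by rule, IAA1, with both elements, and CORI3, as a gene that rose, are shown as the 250 bases before the start with matches in capitals. GAGACA is TGTCTC and CCGACA is TGTCGG read on the opposite strand. IND lies at chr4:43198-43447 (−), IAA1 at chr4:8360746-8360995 (+) and CORI3 at chr4:12310129-12310378 (+).
IND: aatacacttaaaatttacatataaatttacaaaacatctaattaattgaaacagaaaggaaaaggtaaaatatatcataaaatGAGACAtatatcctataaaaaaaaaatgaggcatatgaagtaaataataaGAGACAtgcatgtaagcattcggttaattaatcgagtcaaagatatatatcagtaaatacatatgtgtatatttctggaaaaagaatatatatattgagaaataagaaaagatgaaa
IAA1: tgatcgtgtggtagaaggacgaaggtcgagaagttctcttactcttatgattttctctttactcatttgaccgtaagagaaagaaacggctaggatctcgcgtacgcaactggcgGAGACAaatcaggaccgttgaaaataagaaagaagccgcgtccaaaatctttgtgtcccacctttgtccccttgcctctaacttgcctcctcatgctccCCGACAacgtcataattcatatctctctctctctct
CORI3: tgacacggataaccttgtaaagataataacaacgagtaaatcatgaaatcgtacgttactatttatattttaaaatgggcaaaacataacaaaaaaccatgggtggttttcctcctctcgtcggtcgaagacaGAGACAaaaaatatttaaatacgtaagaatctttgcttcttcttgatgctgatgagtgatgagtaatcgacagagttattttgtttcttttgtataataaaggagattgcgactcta
Of the 3 IND matches, 2 start 167 and 117 bases before the gene start and the other lies in the 50 bases after it, which are not shown. Those of IAA1 start 135 and 36 bases before the gene start and that of CORI3 117 bases before it. A match describes letters only and is not evidence of binding.

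The ovule, carpel and style lists held 1 or 2 called genes each. Of 22 ovule and integument genes, all tested, CUC2 rose and SHP1 fell, against 1.72% of all genes called, and the median was −0.05. At an unadjusted p under 0.05, 2 were higher and 5 lower, where 2441 of all 18616 genes tested were under it. CUC2 (AT5G53950), a NAC factor of organ boundaries, stood at 11.5, 14.2, 19.1 and 17.4 CPM in wild type against 29.9, 33.3, 33.7 and 33.8 CPM in arf6 Pstk_axr3 (1.09, SE 0.19, edgeR adjusted p = 0.00413). DPA4 (AT5G06250), a repressor of CUC2 in leaves, also rose, from 6.63 to 9.56 CPM to 18.02 to 22.9 CPM (1.38, SE 0.12, adjusted p = 8.44e-06), and SHORT-ROOT (SHR, AT4G37650) fell from 52.0 to 65.7 CPM to 36.2 to 39.4 CPM (−0.67, SE 0.11, adjusted p = 0.00316). DPA4 and SHR were chosen after their values were seen. Of 16 transmitting tract and carpel genes 1 fell, BEE1, and of 10 style regulators 1, SHI, where 0.65% of all genes fell. Of the 16, 4 were higher and 3 lower at an unadjusted p under 0.05. BEE1 (AT1G18400) lay at 19.0 to 28.6 CPM in wild type against 13.0 to 17.3 CPM in arf6 Pstk_axr3 and was called in none of the fits without any 1 of 6 libraries, while SHI (AT5G66350), at 9.25 to 10.4 and 4.76 to 7.51 CPM, was called only without arf6 Pstk_axr3 replicate 1 or 3 among the 8 such fits.

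The 10 genes with the largest increases were taken by a rule that required groups without overlap, so their separation is a description. The thionin gene THI2.1 (AT1G72260), a jasmonate-responsive antimicrobial peptide gene, stood at 68.5, 54.3, 68.2 and 65.2 CPM in wild type against 334, 208, 335 and 299.9 CPM in arf6 Pstk_axr3 (log2 fold change 2.20, SE 0.25, edgeR adjusted p = 9.26e-05). The arginase gene ARGAH2 (AT4G08870) stood at 15.4, 9.44, 17.2 and 17.8 CPM in wild type against 67.2, 100.1, 70.6 and 101 CPM in arf6 Pstk_axr3 (2.53, SE 0.40, adjusted p = 0.00249). Both genes passed under every alternative run. CORI3 (AT4G23600), a cystine lyase gene induced by jasmonate, stood at 8.57, 4.23, 16.9 and 11.2 CPM in wild type against 42.3, 65.0, 45.8 and 60.7 CPM in arf6 Pstk_axr3 (2.48, SE 0.42, adjusted p = 0.00413). SOB3 (AT1G76500), an AT-hook protein known for restraining hypocotyl growth, stood at 0.896, 0.911, 0.956 and 1.09 CPM in wild type against 6.17, 4.83, 5.07 and 4.25 CPM in arf6 Pstk_axr3 (2.38, SE 0.25, adjusted p = 4.80e-05). AT4G29690, annotated as an alkaline-phosphatase-like protein, stood at 1.29, 2.15, 2.23 and 2.41 CPM in wild type against 8.58, 9.46, 10.3 and 9.41 CPM in arf6 Pstk_axr3 (2.23, SE 0.21, adjusted p = 1.96e-05). SOB3 and AT4G29690 passed under every alternative run, and CORI3 under all but line 15-5 alone.

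The other 5 increases differed more between libraries. PYD4 (AT3G08860), an aminotransferase family gene, stood at 0.497 to 1.69 CPM in wild type against 30.6, 7.40, 14.0 and 5.05 CPM in arf6 Pstk_axr3 (3.61, SE 0.52, adjusted p = 0.00113), higher in both line 15-5 libraries than in those of line 25-2, a difference that did not pass the test between lines (1.81, adjusted p = 0.305). The SKU5-like gene sks14 (AT1G55560) had 0, 8, 0 and 1 reads in wild type and 17, 71, 8 and 44 in arf6 Pstk_axr3 (3.76, SE 0.62, adjusted p = 0.00307). IGMT5 (AT1G76790), a methyltransferase of indole glucosinolates, stood at 0.828 to 3.5003 CPM in wild type against 4.69, 15.6, 11.5 and 14.0 CPM in arf6 Pstk_axr3 (2.60, SE 0.46, adjusted p = 0.00468). AT1G14120, annotated as an oxygenase of the oxoglutarate-dependent superfamily, lay at 0.109 to 0.398 CPM and 1.23 to 2.51 CPM (2.81, adjusted p = 0.00505). FTM1 (AT1G43800), of the acyl desaturase family, lay at 0.497 to 1.31 CPM and at 2.41, 2.06, 5.48 and 11.4 CPM (2.45, adjusted p = 0.0327). It lost its call under 9 of 18 alternatives, AT1G14120 and IGMT5 under 2 of 18, sks14 under 2 of 15 and PYD4 under 1 of 18. In line 15-5 alone sks14, AT1G14120, IGMT5 and FTM1 did not pass. All 5 lay at 3.5003 CPM or less in every wild-type library.

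**Figure D3:**
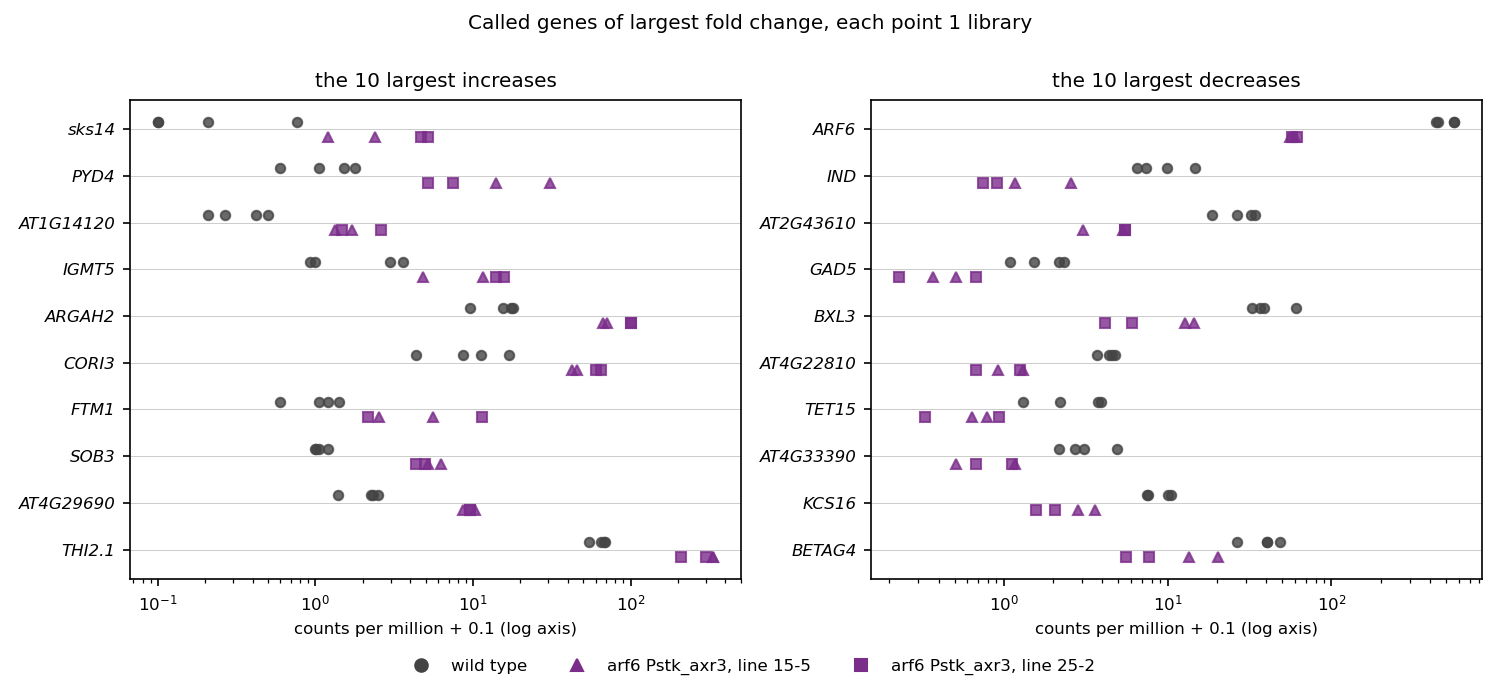
CPM plus 0.1 (horizontal log axes) of the 10 genes with the largest increases and the 10 with the largest decreases among called genes with groups that do not overlap and with an average level (log2 CPM) of 1 or more. Each point is 1 library, grey for wild type and purple for arf6 Pstk_axr3, with a shape for each line, and the colours do not mix within any gene because the rule required it.

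The 8 largest decreases by rule after ARF6 and IND are given next, again with groups that do not overlap by the rule. The chitinase family gene AT2G43610 stood at 32.2, 18.6, 26.5 and 33.8 CPM in wild type against 2.95, 5.40, 5.21 and 5.39 CPM in arf6 Pstk_axr3 (log2 fold change −2.51, SE 0.22, edgeR adjusted p = 6.70e-06). BXL3 (AT5G09730), a beta-xylosidase gene, stood at 60.9, 32.5, 38.6 and 36.5 CPM in wild type against 14.4, 4.05, 12.6 and 5.97 CPM in arf6 Pstk_axr3 (−2.28, SE 0.36, adjusted p = 0.00219). BETAG4 (AT5G20330), a beta-glucanase gene with close relatives among which reads may be split, stood at 40.2, 26.5, 48.3 and 40.5 CPM in wild type against 20.3, 5.47, 13.4 and 7.57 CPM in arf6 Pstk_axr3 (−1.79, SE 0.28, adjusted p = 0.00209). In BXL3 and BETAG4 both line 25-2 libraries lay below both line 15-5 libraries, and neither line difference passed the test (adjusted p = 0.977 and 0.256). KCS16 (AT4G34250), a ketoacyl-CoA synthase gene for very long fatty acids, fell from 7.37 to 10.4 CPM to 3.49, 1.48, 2.74 and 1.95 CPM (−1.92, SE 0.26, adjusted p = 0.000575), and the putative AT-hook gene AT4G22810 fell from 3.61 to 4.64 CPM to 0.579 to 1.21 CPM (−2.22, SE 0.31, adjusted p = 0.00087). These 2 and AT2G43610 kept their calls under every alternative run. GAD5 (AT3G17760), a glutamate decarboxylase gene, rested on 2, 2, 3 and 5 reads in arf6 Pstk_axr3 against 10, 27, 13 and 13 in wild type (−2.35, adjusted p = 0.0398). The tetraspanin gene TET15 (AT5G57810) had 2 to 13 reads against 11 to 44 (−2.13, adjusted p = 0.0226), and AT4G33390, annotated by a domain of unknown function, had 3 to 16 against 13 to 48 (−1.96, adjusted p = 0.0285). GAD5, TET15 and AT4G33390 lost their calls under 10 of 15, 6 of 16 and 8 of 17 alternatives, among them leaving out wild-type replicate 2 or arf6 Pstk_axr3 replicate 3 or 4.

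Jasmonate synthesis genes were partly higher. This pathway makes the hormone from plastid lipids through lipoxygenase, allene oxide synthase and allene oxide cyclase. Of 15 genes, 14 were tested, LOX2, AOC1 and OPR3 rose and none fell, with a median of 0.38, where 1.07% of all genes rose. LOX2 (AT3G45140), a lipoxygenase gene, stood at 867, 445, 719.7 and 592 CPM in wild type against 1173, 1293, 1215 and 1199.6 CPM in arf6 Pstk_axr3 (log2 fold change 0.90, SE 0.19, edgeR adjusted p = 0.0216). AOC1 (AT3G25760), a cyclase gene with near-identical neighbours, stood at 1.69, 1.57, 1.75 and 1.31 CPM in wild type against 3.49, 5.02, 4.38 and 3.44 CPM in arf6 Pstk_axr3 (1.38, SE 0.24, adjusted p = 0.00487). The reductase gene OPR3 (AT2G06050) rose from 63.2 to 77.7 CPM to 81.0 to 109 CPM. The count of 3 was 1 without wild-type replicate 2 or 4 or arf6 Pstk_axr3 replicate 2 and with the high library numbers only. AOS lay at 21.8 to 28.7 and 22.7 to 28.0 CPM and DAD1, a phospholipase gene needed for jasmonate in anthers, had 1 read in wild type and 3 in arf6 Pstk_axr3. None of 14 tested jasmonate response genes of 18 passed the test, 6 were higher at an unadjusted p under 0.05 and the median was 0.29. With DESeq2 2 of them were called higher, and 3 when only the 8 libraries were fitted. The storage protein gene VSP2, a classic jasmonate marker, stood at 469.9, 393, 412 and 565 CPM in wild type against 685, 1349, 859 and 1057 CPM in arf6 Pstk_axr3 (1.102, adjusted p = 0.138).

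Glucosinolates are sulphur-containing defence compounds of the cabbage family, made from methionine or tryptophan. Of 12 methionine glucosinolate genes, 6 were tested, SUR1, SOT17 and SOT18 rose and none fell (median 0.65), where 1.07% of all genes rose. Other members were near 0 reads. CYP79F1 had 2 reads in wild-type replicate 1 and none elsewhere in the 8 libraries. CYP79F2 had 1 read in arf6 Pstk_axr3 replicate 2 and none elsewhere in them. The 3 calls therefore do not describe the branch as a whole. SOT17 (AT1G18590), a sulphotransferase gene, stood at 4.18, 3.15, 6.06 and 5.91 CPM in wild type against 9.66, 16.0, 14.2 and 21.1 CPM in arf6 Pstk_axr3 (log2 fold change 1.70, SE 0.33, edgeR adjusted p = 0.00999). SUR1 (AT2G20610), a lyase gene shared by both branches, stood at 53.4, 51.6, 58.3 and 54.3 CPM in wild type against 63.7, 76.8, 72.9 and 80.5 CPM in arf6 Pstk_axr3 (0.44, SE 0.10, adjusted p = 0.0248). The count of 3 was 0 without wild-type replicate 2 and 1 without wild-type replicate 1 or 4 or arf6 Pstk_axr3 replicate 2, 3 or 4, and 0 with the high library numbers only. A list of 21 genes of the tryptophan branch was written after the values had been seen, so its count describes these libraries and lends no support. Of its 13 tested members 9 rose and 1, CYP81F3, fell, where 1.72% of all genes were called. CYP79B3 (AT2G22330), which starts the branch, stood at 11.8, 11.8, 19.6 and 15.2 CPM in wild type against 28.3, 53.9, 53.8 and 62.3 CPM in arf6 Pstk_axr3 (1.80, SE 0.24, adjusted p = 0.000435), and its partner CYP79B2 (AT4G39950) at 14.8 to 23.4 CPM and at 25.4, 62.7, 67.1 and 104 CPM (1.76, SE 0.35, adjusted p = 0.0128). In both genes arf6 Pstk_axr3 replicate 1 was the lowest of its group. CYP83B1, GSTF9, UGT74B1, SOT16 and the regulator gene MYB34 rose by 1.37, 1.12, 0.72, 0.68 and 0.82. CYP81F3 (AT4G37400), which modifies the indole ring, fell from 2.15 to 4.38 CPM to 0.129 to 1.23 CPM. The count of 9 was 4 without wild-type replicate 2 or arf6 Pstk_axr3 replicate 4, 5 without wild-type replicate 4 or arf6 Pstk_axr3 replicate 2 or 3, and 0 with the high library numbers only. Another 3 genes were chosen after their values were seen, and other genes of their kind were not examined as a list. The specifier genes AT1G54040 and NSP1 rose from 12.8 to 17.5 and from 9.86 to 12.6 CPM to 34.6 to 44.1 and to 25.9 to 30.7 CPM, and the lectin gene JR1 (AT3G16470) from 326 to 512 CPM to 844 to 1111 CPM.

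The remaining lists held at most 2 called genes each, against 1.72% of all genes. Of 15 alpha-expansins, which loosen walls, 11 were tested and EXPA9 and EXPA14 rose, from 1.43 to 2.24 and 1.59 to 3.56 CPM to 3.33 to 3.70 and 4.57 to 7.78 CPM, and neither was called without wild-type replicate 1 or 4 or arf6 Pstk_axr3 replicate 1. Of 15 tested genes of the XTH family 1 rose, XTH32, from 16.1 to 18.3 CPM to 22.5 to 26.6 CPM. The gibberellin synthesis gene GA3OX1 (AT1G15550) fell from 0.875 to 2.23 CPM to 0.134 to 0.274 CPM, a level of 1 to 3 reads per library. It lost its call without wild-type replicate 2. In brassinosteroid metabolism DWF4 (AT3G50660) rose from 9.30 to 15.8 CPM to 16.4 to 20.1 CPM, a call lost without wild-type replicate 2, 3 or 4 or arf6 Pstk_axr3 replicate 3. ROT3 (AT4G36380) fell from 34.0, 26.5, 21.8 and 24.9 CPM to 13.7, 11.9, 12.9 and 14.9 CPM (log2 fold change −1.02, SE 0.14, edgeR adjusted p = 0.000575). Of 10 tested sugar transporters of the SWEET family, SWEET10 (AT5G50790) rose from 21.7, 15.6, 9.56 and 10.1 CPM to 49.0, 34.0, 59.6 and 57.8 CPM (1.77, SE 0.31, adjusted p = 0.0046) and SWEET4 fell from 2.69 to 4.05 CPM to 1.03 to 1.64 CPM, a call lost without any 1 of the 8 libraries. The terpene synthase gene AT2G24210 rose from 0.638 to 1.53 CPM to 3.09 to 5.39 CPM. The petal and stamen gene AP3 rose from 6.85 to 11.7 CPM to 11.9 to 18.4 CPM (adjusted p = 0.0379), and AP3 was not called without wild-type replicate 2, 3 or 4 or arf6 Pstk_axr3 replicate 1, 2 or 4. Lists with no called gene were proanthocyanidin, flavonol, suberin, cutin and wax, secondary wall, KNOX, cytokinin response, female gametophyte, cell cycle, photosynthesis, heat shock and clock genes. Of these, the 12 tested secondary wall genes all had fitted values above 0 (median 0.51), 6 of them at an unadjusted p under 0.05. With DESeq2 1 of them was called, and without wild-type replicate 1 the count was 2. No cell cycle, photosynthesis or clock gene reached an unadjusted p under 0.05.

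**Figure D4:**
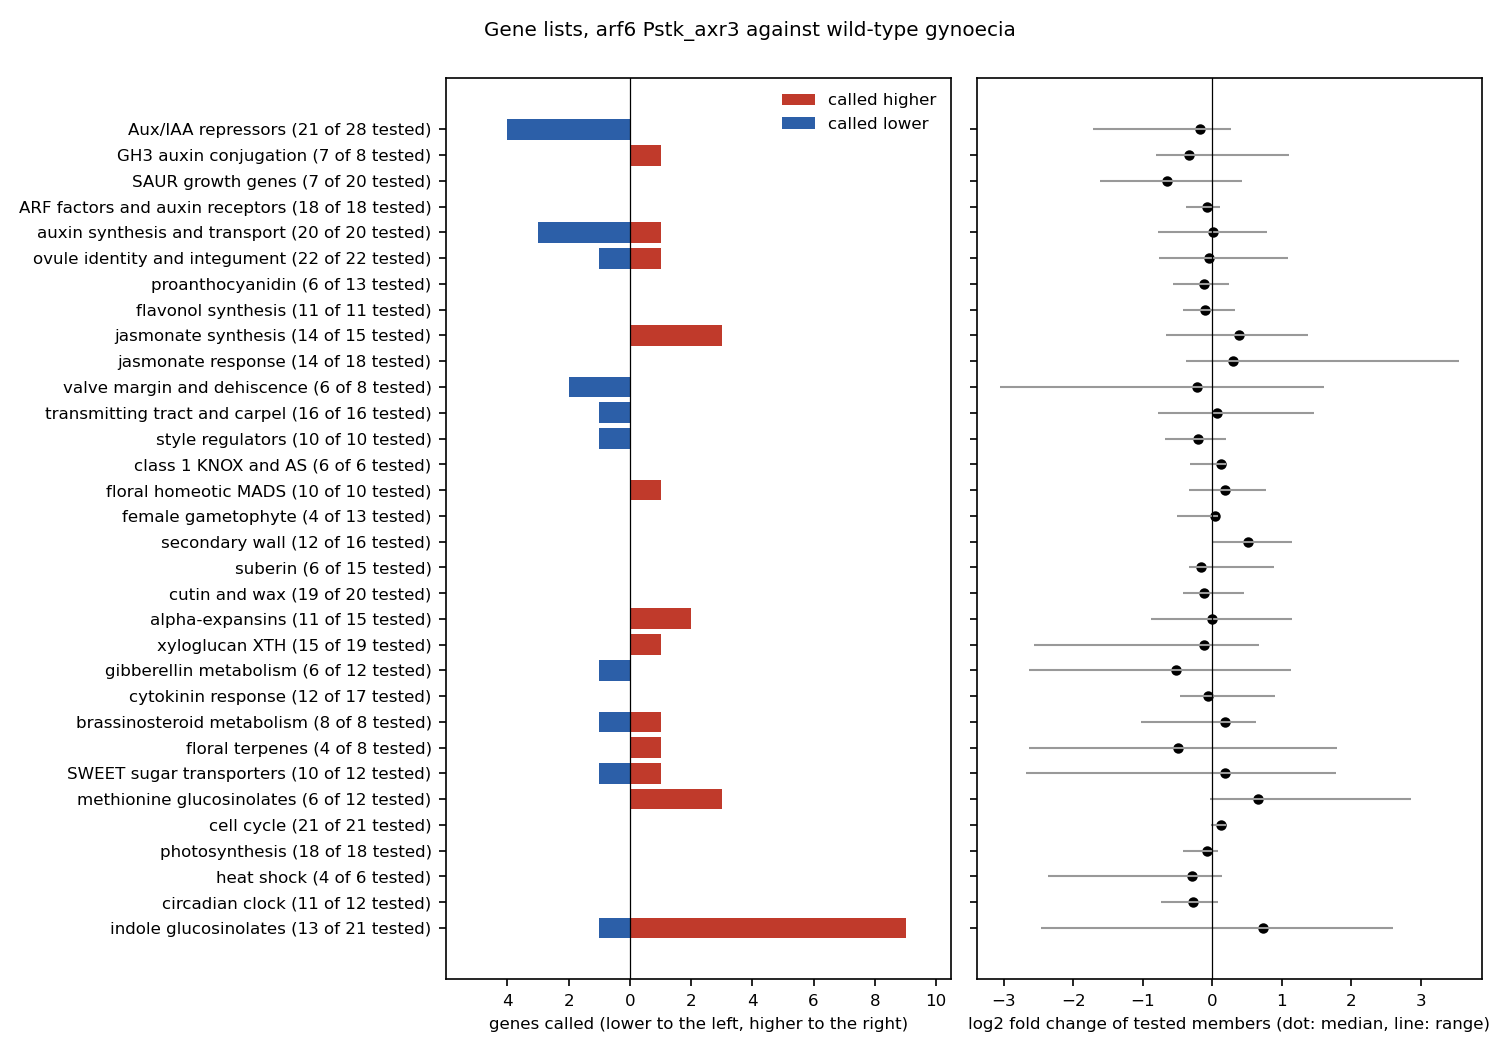
For each gene list, the left panel counts members called higher (red, to the right) and lower (blue, to the left), and the right panel gives the median (dot) and range (line) of the log2 fold changes of tested members. Called genes lie in 17 of the 32 lists, and the list of indole glucosinolate genes at the bottom was written after the values had been seen.

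The 2 transgenic lines were then set against each other. With 2 libraries per line, line 15-5 alone gave 92 genes against wild type (0.494%) and line 25-2 alone 261 (1.4%). Of the 320 genes, 62 passed in both lines alone, 16 only in line 15-5, 137 only in line 25-2 and 105 in neither. A direct test between the lines called 3 genes (0.0161%), all higher in line 15-5, and 19 with DESeq2. Beside STK these were the trehalase gene TRE1 (AT4G24040) and the berberine-family oxidase gene AT5G44440. TRE1 stood at 35.1 and 25.2 CPM in line 15-5, at 4.76 and 8.38 CPM in line 25-2 and at 17.9 to 23.59 CPM in wild type (difference between lines 2.26, SE 0.26, adjusted p = 0.00137). AT5G44440 stood at 57.5 and 54.3 CPM in line 15-5, at 23.4 and 26.0 CPM in line 25-2 and at 11.1 to 16.6 CPM in wild type (1.18, SE 0.15, adjusted p = 0.00423), so that both lines exceeded wild type. In Pstk_axr3, STK stood at 104 CPM in the line 15-5 library and at 45.7 CPM in the library of the cross with line 25-2, with no replicate of either.

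Against Pstk_axr3, the transgenic group with an intact ARF6, 1593 genes differed (8.56%), 675 higher (3.63%) and 918 lower (4.93%) in arf6 Pstk_axr3. Against wild type, by comparison, Pstk_axr3 differed in 2929 genes (15.7%) and arf6arf8 in 2077 (11.2%). These comparisons share the wild-type libraries. The 2 transgenic groups differed in more than ARF6. IAA17 stood at 26.6 to 35.9 CPM in arf6 Pstk_axr3 against 68.3 to 84.8 CPM in Pstk_axr3. Library numbers were 32, 48, 50 and 51 against 3, 12, 49 and 52, and Pstk_axr3 replicates 1 and 2 name no line. The parts of ARF6, transgene RNA, line and library order cannot be told apart here. Several genes far from wild type in Pstk_axr3 lay nearer to it in arf6 Pstk_axr3. The genes given here and in the next paragraph are examples, and the share of all altered genes that lay in either way was not counted. BETAG4 had 0 to 0.179 CPM in Pstk_axr3 and 5.47 to 20.3 CPM in arf6 Pstk_axr3 (difference 6.65, SE 0.71, edgeR adjusted p = 5.59e-06), with 26.5 to 48.3 CPM in wild type. SOB3 stood at 24.3, 42.7, 25.6 and 34.2 CPM in Pstk_axr3 and was 2.64 lower in arf6 Pstk_axr3 (SE 0.18, adjusted p = 2.58e-08). AT1G14120 stood at 25.7 to 42.1 CPM in Pstk_axr3 (−4.19, adjusted p = 1.96e-08) and AT4G29690 at 26.2 to 48.7 CPM (−2.05, adjusted p = 1.61e-07). CUC2 stood at 97.9 to 119.7 CPM in Pstk_axr3 (−1.74, SE 0.17, adjusted p = 2.35e-06), and DPA4 was 1.42 lower in arf6 Pstk_axr3 (adjusted p = 8.07e-08). IAA7 stood at 2.74 to 6.59 CPM in Pstk_axr3 and was 1.44 higher in arf6 Pstk_axr3 (SE 0.27, adjusted p = 0.00233). In each of these genes the arf6 Pstk_axr3 libraries thus lay between the 2 other groups, as did IAA17 itself.

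Other genes set arf6 Pstk_axr3 apart from Pstk_axr3 in the direction away from wild type. IND stood at 7.99, 6.94, 5.65 and 12.0 CPM in Pstk_axr3, within the range of wild type on 3 of the 4, and arf6 Pstk_axr3 was lower by 2.78 (SE 0.40, edgeR adjusted p = 0.000165). In arf6arf8 it stood at 0.489 and 1.34 CPM, and the difference of 0.31 from arf6 Pstk_axr3 (SE 0.58, adjusted p = 0.816) did not pass. ALC stood at 172 to 226 CPM in Pstk_axr3 (−0.65, SE 0.10, adjusted p = 0.00051) and at 58.5 and 71.1 CPM in arf6arf8, which lay 0.95 below arf6 Pstk_axr3 (SE 0.13, adjusted p = 0.000244). SWEET10 stood at 8.19 to 24.4 CPM in Pstk_axr3 (difference 1.58, SE 0.31, adjusted p = 0.00308) and at 90.9 and 93.0 CPM in arf6arf8. AT5G44440 stood at 0.799 to 1.80 CPM in Pstk_axr3, at 83.9 and 104 CPM in arf6arf8 and at 23.4 to 57.5 CPM in arf6 Pstk_axr3. It was thus below wild type with the transgene alone and above it in both genotypes with a mutated ARF6 (difference from Pstk_axr3 5.19, SE 0.38, adjusted p = 5.16e-08). THI2.1 and SHP1 did not follow this direction, as neither lay further from wild type in arf6 Pstk_axr3 than in Pstk_axr3. THI2.1 stood at 303 to 702 CPM in Pstk_axr3 and 148 and 211 CPM in arf6arf8, and neither difference from arf6 Pstk_axr3 passed (adjusted p = 0.147 and 0.158). SHP1 was below wild type in all 3 genotypes, at 69.1 to 83.3 CPM in Pstk_axr3 and 78.8 and 99.7 CPM in arf6arf8. Against arf6arf8 as a whole, arf6 Pstk_axr3 differed in 1597 genes (8.58%).

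**Figure D5:**
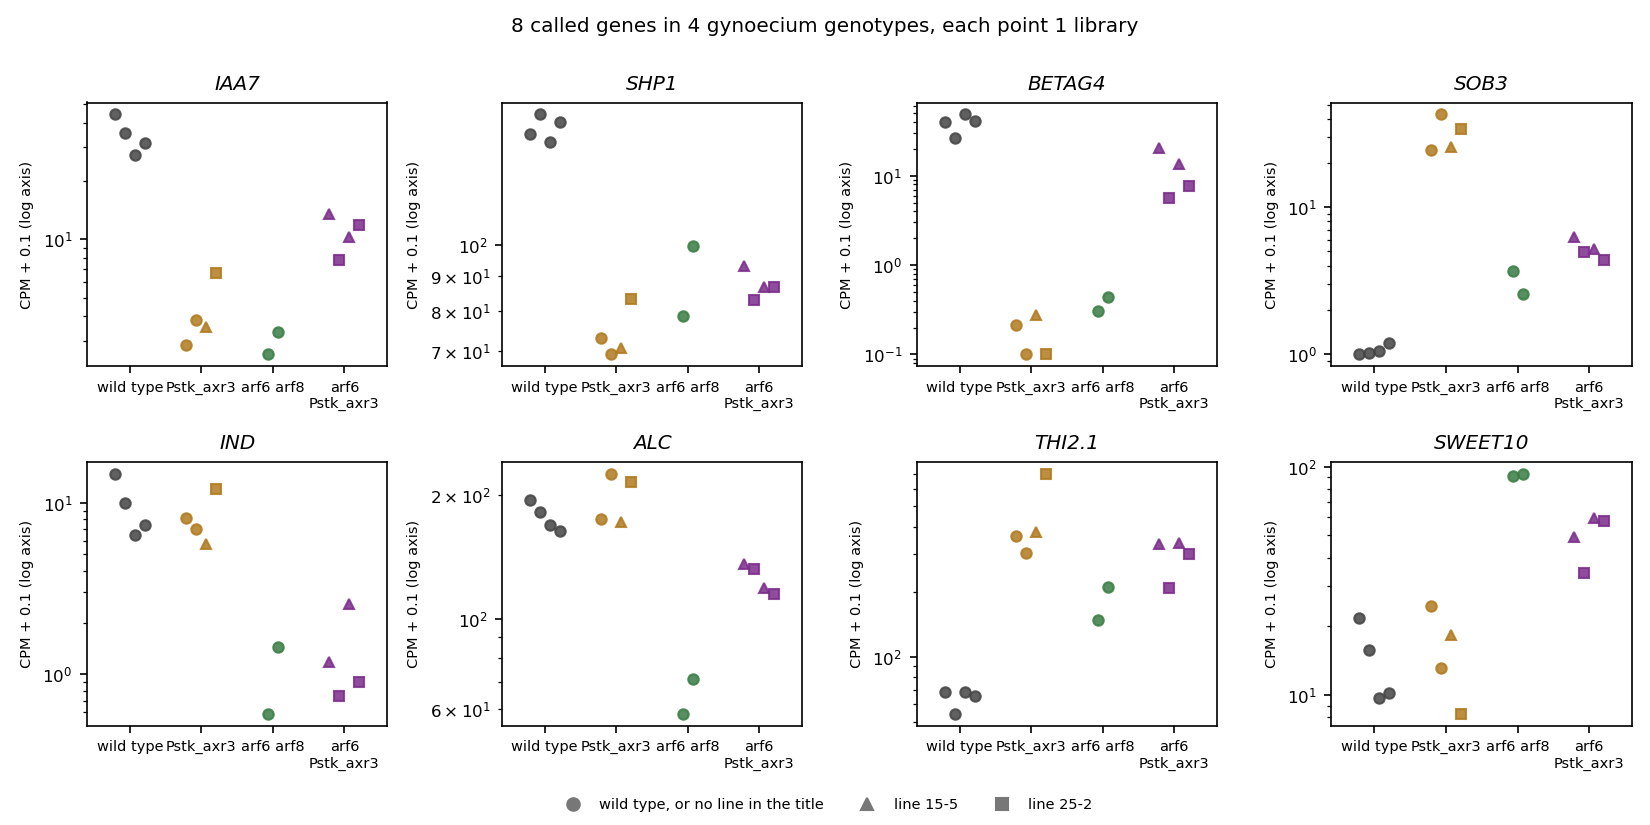
CPM plus 0.1 (vertical log axes, each with its own range) of 8 called genes in every library of wild type, Pstk_axr3, arf6arf8 and arf6 Pstk_axr3 gynoecia, with a point per library and a shape per line. In IAA7, BETAG4 and SOB3 the arf6 Pstk_axr3 points lie between wild type and Pstk_axr3, whereas in IND, ALC and SWEET10 they lie apart from both, on the side of arf6arf8.

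A gene next to ARF6 also differed. AT1G30320, annotated as a remorin family protein, lies at chr1:10680079-10683137 (+) and ARF6 at chr1:10685822-10690988 (−) in TAIR10.1. It stood at 33.2, 31.6, 34.3 and 30.1 CPM in wild type against 69.8, 81.6, 65.9 and 62.8 CPM in arf6 Pstk_axr3 (log2 fold change 1.12, SE 0.13, edgeR adjusted p = 0.000166). The groups did not overlap, and the gene stood at 34.6 to 65.2 CPM in Pstk_axr3 and at 21.3 and 21.0 CPM in arf6arf8. Whether the ARF6 allele bears on its neighbour was not tested. Among genes near 0 in wild type, the cation exchanger gene CHX23 (AT1G05580) had no read in any wild-type library and stood at 0.537, 3.28, 0.959 and 1.49 CPM in arf6 Pstk_axr3. It was called higher (edgeR adjusted p = 0.00531), with replicate 2 the highest. AT1G30320 and CHX23 were chosen after their values were seen, and the other genes near ARF6 are not described here.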

How the data were processed

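The authors deposited raw counts of reads per gene for each library, from 50-base reads. Per the submitters' processing notes, the tools were TopHat2, HTSeq and edgeR and the build was TAIR10, all without versions, and the strand setting is not given in the sources used here. Each count table held 33602 loci. The counts of all 18 gynoecium libraries in 5 groups were fitted with edgeR 4.0.16 (R 4.3.3, limma 3.58.1) with TMM scaling and the quasi-likelihood F test, after a filter on low counts (a minimum count of 10 and a minimum total of 15) that left 18616 genes. Genes were called at a Benjamini-Hochberg adjusted p under 0.05. The script was tested on simulated data. For the main comparison it recovered 79% of 2-fold and 98% of 4-fold changes. Of its 191 calls at an adjusted p under 0.05, 7.33% were false. The members, gene lists and tests were chosen with earlier results of these data known, and the list of indole glucosinolate genes was written after values were seen.

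Genes were named by rule as the altered genes, the 10 highest and 10 lowest by log2 fold change among called genes with groups that do not overlap and an average level (log2 CPM) of 1 or more, and the 2 with the smallest adjusted p in each list with at least 3 calls. Other list members were named because they were called or as reference genes, after their values were seen. Of 486 list entries 484 were matched to loci and 2 were left out. Sequences were read from the RefSeq annotation of TAIR10.1. Alternatives were other scaling factors, no filter, a filter of 5 CPM in 4 libraries, DESeq2 1.42.0, the 8 libraries alone, the replicate block, each line alone, high library numbers only and leaving out each library.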

Additional observations from a re-analysis of the deposited data

Results flagged for a closer look

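Of 74 groups of 4 libraries examined, 7 held a library far from the other 3, where chance gives about 1 in 20. Wild-type replicate 1 was high for ARF8 at 406 CPM, wild-type replicate 4 for STK at 138 CPM, and wild-type replicate 2 for PIN7 at 151 CPM and for sks14 at 0.663 CPM. For AT2G43610, arf6 Pstk_axr3 replicate 1 was low at 2.95 CPM. In arf6 Pstk_axr3 replicate 4 the summed stamen and pollen markers reached 201 CPM and the summed sepal, petal and stamen identity genes 31.4 CPM, and 185 genes were called without that library.

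The transgenic lines differed by the edgeR quasi-likelihood test in 3 genes, with line 15-5 above line 25-2 in both libraries of each line. The log2 differences were 2.24 for STK, 2.26 for TRE1 and 1.18 for AT5G44440. The cause was not tested.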

How the results depend on the processing

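Of the 320 calls, 320 kept their sign and call under median-of-ratios scaling, where 325 genes passed. With upper-quartile scaling 319 passed, without a filter 325, with the stricter filter 283 and with the 8 libraries alone 298. DESeq2 called 507 genes (303 higher, 204 lower), line 15-5 alone 92 (62 and 30), line 25-2 alone 261 and the high library numbers only 144 (96 and 48). Leaving out 1 library gave 143 to 373 calls, 93 to 232 higher and 50 to 141 lower, with the fewest without wild-type replicate 2. The difference between lines gave 19 genes with DESeq2 against 3. Deviations of same-numbered libraries from their group means gave r from −0.0447 to 0.0836, and those of differently numbered libraries −0.226 to 0.241. With 4 libraries per group this cannot show whether the numbers pair them, and the main fit used no pairing. With the replicate block 321 genes passed, 208 of them among the 320. Of 29 called genes named by rule, 11 kept their call in every alternative run, 10 lost it in 1 to 3 and 8 in more than 3. No direction of a called named gene reversed. STK passed in line 25-2 alone (−1.98). Depth limits genes of a few reads, such as GAD5 and GA3OX1, and the causes of these changes were not tested.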
